A study of Mus musculus with 6 samples.

Results

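Cells carrying hairpin 2 against Dazl were compared with cells carrying hairpin 1 against the same gene, on 4 of the 6 arrays of the series: 2 arrays of hairpin 2 and 2 of hairpin 1, chosen by the hairpin number in the sample titles and matched by day of differentiation (9 or 12). The scanner files' own names carry another pair of hairpin numbers, and the titles were followed throughout. All 6 samples were male mouse cells of mixed C57BL/6 and 129SV strain, labelled as primordial germ cells that formed in culture from embryonic stem (ES) cells with a transgenic GFP reporter of Oct4. The ES cells held a vector with the tdTomato marker that was either a control or carried Dazl hairpin 1 or Dazl hairpin 2. They had been separated from feeder cells by attachment to plastic and were differentiated on gelatin. Cells positive for both GFP and tdTomato were then sorted, and their total RNA was measured with Agilent whole-genome mouse arrays. The gate on Oct4-GFP was thus the same for every sample. There was 1 array for each vector and day, and the labels do not say whether a vector's 2 days came from separate cultures or from 1 transduced line.

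Short hairpin RNAs are processed into small RNAs that direct the cleavage of a matching mRNA, and hairpins against 1 target are used side by side because each can have its own sequence-dependent effects. DAZL is an RNA-binding protein of germ cells that binds and regulates mRNAs needed for their development. Cdx2 encodes a caudal-type homeobox transcription factor, which specifies the trophectoderm of the blastocyst and later the intestinal epithelium, and Aqp8 encodes a water channel of gut and other epithelia. Neither is a marker of primordial germ cells.

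Levels are given as log2 of the processed signal with each array's 75th percentile at 0, so a difference of 1 is a 2-fold change, and a difference is always hairpin 2 minus hairpin 1 unless another pair is named. A gene passed where the Benjamini-Hochberg adjusted p of limma, fitted over 20220 genes on all 6 arrays with vector and day as terms, was under 0.05. The share of probes well above background ran from 70.27% to 73.27% over the arrays, and their correlations with each other from 0.982 to 0.994 (Pearson's r over genes). Each day had a slide of its own, with the vectors in the same order of positions on each, so a vector cannot be told apart from its position. Of 7 defining markers of primordial germ cells, 6 were measured, and each was well above background on all 6 arrays: Pou5f1, Dppa3, Prdm1, Nanos3, Kit and Ddx4. None of these 6 passed between the hairpins; the largest difference was that of Dppa3 (0.62, SE 0.20, limma adjusted p = 0.338).

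The target was low with both hairpins. On the brighter of the Dazl probes, log2 levels at day 9 were 1.32 in control, -3.05 in hairpin 1 and -2.28 in hairpin 2 cells, and at day 12 they were 2.58, -2.24 and -1.84. Both hairpins thus lay far below the control at both days, with hairpin 2 slightly above hairpin 1. The difference was 0.59 (SE 0.23, limma adjusted p = 0.42), which did not pass. The other probe had the opposite sign (-0.20, SE 0.19, limma adjusted p = 0.684 over 30190 probes), with signals of 23.2 and 24.8 at day 9 and of 48.3 and 36.3 at day 12 in hairpins 1 and 2. No order of the hairpins in Dazl was therefore resolved, although a p that misses the threshold does not show equal levels.

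A small set of other genes separated the hairpins. The fit called 14 genes (0.0692% of those tested), 9 lower in hairpin 2 (0.0445%) and 5 higher (0.0247%). At an unadjusted p under 0.05 there were 2359 genes (11.7%). Counted without a test, 230 genes (1.14%) were at least 2-fold apart in the same direction at both days: 142 genes (0.702%) higher in hairpin 2 and 88 (0.435%) lower. A further 11 (0.0544%) differed 2-fold in opposite directions. All 14 called genes were at least 2-fold apart in the called direction at both days. Across genes, the differences of the 2 days correlated with a Pearson's r of 0.40 and a Spearman's rho of 0.32; the days share no array, and genes are not independent replicates.

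The call count rests on few arrays and 12 of the 14 adjusted p-values were 0.0497. It was 0 without the hairpin 2 array of either day, 0 without day as a term, 1 after quantile normalization, 2 with the median in place of the 75th percentile and 119 (66 higher and 53 lower) with normexp background correction. Each of the 14 genes kept its sign in every setting tried but normexp, where Isx and Dppa1 turned. With 1 array of each hairpin per day, no exact permutation test within days could go below p = 0.5, and the model's p-values cover only the spread between these samples, which may be technical.

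**Figure D1:**
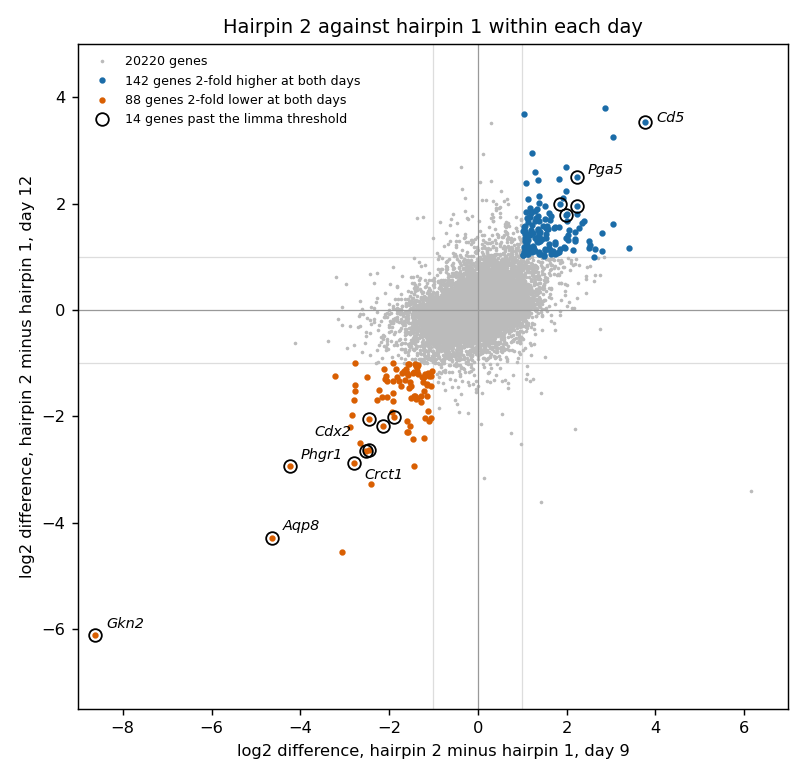
Log2 difference of hairpin 2 minus hairpin 1 at day 9 (x axis) and day 12 (y axis) for 20220 genes in grey, with the 142 genes at least 2-fold higher at both days in blue, the 88 at least 2-fold lower in orange and the 14 past the limma threshold ringed. Among the ringed genes Gkn2, whose hairpin 2 signal at day 9 was not well above background, and Aqp8 lie lowest and Cd5 highest, and the cloud is wider along day 9 (SD 0.58) than along day 12 (SD 0.38).

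The day 9 arrays were farther apart than the day 12 arrays. At day 9, 650 genes were at least 2-fold higher and 926 at least 2-fold lower in hairpin 2. At day 12 the numbers were 359 and 176. Among the 18482 genes that every array measured well above background, the SDs of the differences were 0.52 and 0.32. The hairpin 2 array of day 9 had a Pearson's r of 0.982 to 0.987 with each other array, and 0.986 with hairpin 2 of day 12. Control and hairpin 1 of day 9, on the same slide, had 0.993, and control and hairpin 1 of day 12 had 0.991. Pairs without that hairpin 2 array ran from 0.985 (hairpin 1 of day 9 with control of day 12) to 0.994. All day 9 differences between the hairpins use that array. Each day also had its own slide, so an effect of the day and an effect of the slide cannot be told apart. The source of the wider spread at day 9 and its bearing on single genes was not tested.

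Cdx2, Aqp8 and 2 other genes of gut epithelium were lower in hairpin 2 than in hairpin 1 cells. Aqp8 (NM_007474, chromosome 7) had log2 levels of -2.76 in control, 0.77 in hairpin 1 and -3.86 in hairpin 2 cells at day 9, and of -1.97, 1.10 and -3.18 at day 12. Hairpin 1 was high and hairpin 2 lay below the control at both days. Aqp8 fell by 4.46 on the log2 scale (SE 0.19, 22-fold, limma adjusted p = 0.0107), and its difference was between -4.66 and -3.15 over all settings tried. Its adjusted p was above 0.05 in 3 of them: 0.103 without day as a term, 0.249 without hairpin 2 of day 9 and 0.066 without hairpin 2 of day 12.

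Cdx2 (NM_007673, chromosome 5) was at -3.33, -1.72 and -4.18 in control, hairpin 1 and hairpin 2 cells at day 9, and at -3.19, -1.56 and -3.62 at day 12. The order of the vectors was the same as for Aqp8, with no overlap between the hairpins. Cdx2 fell by 2.26 (SE 0.19, 4.79-fold, limma adjusted p = 0.0497), and by 1.08 with normexp. It did not pass in 8 of the 16 other settings, where its limma adjusted p reached 0.249. Because the RNA came from sorted populations, fewer cells with these transcripts and less RNA per cell cannot be told apart, here or for any gene below.

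Other genes of the gut epithelium fell with them. Phgr1, which encodes a small protein rich in proline, histidine and glycine made by intestinal epithelium, was at -5.85, -3.29 and -7.53 at day 9 and at -5.10, -3.09 and -6.03 at day 12 in control, hairpin 1 and hairpin 2 cells. Hairpin 2 at day 9 was not well above background; at day 12, where all vectors were, the difference was -2.94. Phgr1 fell by 3.59 (SE 0.31, limma adjusted p = 0.0497) in the fit, which includes the dim array, and by 0.38 with normexp, where it did not pass. Isx, an intestine-specific homeobox gene that CDX2 is known to activate, was at -5.94 and -5.71 in hairpin 1 cells and not well above background on either hairpin 2 array. Its level was at least 2.07-fold lower in hairpin 2 (means -5.82 and -8.36, limma adjusted p = 0.0497); with normexp its difference was 0.33, where the median of all genes was 0.18. Here and below, such a bound sets the bright hairpin's mean against the dim hairpin's. Each dim array is taken at the lowest signal well above background on it or at the gene's own signal, whichever was higher. On hairpin 1 of day 12, Hoxc6 was well above background at -6.68 while Wif1, at -6.49, was not. Such a bound is therefore not a strict limit.

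The intestinal list as a whole had no common direction. Of 30 measured members, 4 fell (Aqp8, Phgr1, Isx and Cdx2) and none rose, where 0.0445% and 0.0247% of all genes did. With these 4 included, 12 members were higher and 11 lower at both days, beside 32.2% and 26.6% over all genes. The median difference was 0.00289, beside 0.0195 over all genes. Muc13, a transmembrane mucin, was -1.52 (SE 0.26, limma adjusted p = 0.126), while Slc5a1, the sodium-glucose transporter of the gut, was 1.17 (SE 0.16, limma adjusted p = 0.0976); neither passed. The summed level of the list, in units of the array's 75th percentile, was 6.45 and 6.98 in control, 9.17 and 11.7 in hairpin 1 and 7.15 and 8.42 in hairpin 2 cells. These sums include the 4 called genes. Of 9 measured aquaporins, Aqp8 was the only member to pass. Aqp1, a water channel of endothelium and red cells, was 1.26 (SE 0.26) and Aqp3, an aquaglyceroporin of epithelia, -0.33 (SE 0.21), both short of the threshold.

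The Hox clusters and the posterior axis genes had medians near that of all genes. Over all genes, 32.2% were higher and 26.6% lower at both days, and 0.0692% passed. Among 28 measured Hox genes 7 were higher and 11 lower at both days, with a median of -0.137, and none passed. Among 18 measured posterior and caudal genes 5 were higher and 8 lower at both days (median -0.0626), and Cdx2 was the only member called. Wnt targets and feedback genes, 27 measured, had a median of -0.0281 with no member called. The Hox median changed sign with the setting: it was 0.45 with normexp, 0.06 over the members well above background on all 6 arrays and 0.09 without hairpin 2 of day 9.

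To show the DNA next to the genes that fell, the 250 bases before the start of 4 of them are printed from RefSeq on GRCm38.p6: Cdx2 (chr5:147307250-147307499, minus strand) and Aqp8 (chr7:123462044-123462293, plus strand) as the marker pair, and Gkn2 (chr6:87373115-87373364, plus strand) and Dppa1 (chr11:46629275-46629524, minus strand) as called genes with a match to a searched motif. Capitals mark matches to either of a pair of motifs that were searched on both strands. The first is TTTATG, the core that caudal homeobox factors such as CDX2 bind. The other is AGATAA, a form of the core of sites for GATA factors. Other forms were not searched and are not marked, such as the tgataa in the Gkn2 window. A match on the opposite strand reads as the reverse complement of these letters, and no matches overlapped.
Cdx2: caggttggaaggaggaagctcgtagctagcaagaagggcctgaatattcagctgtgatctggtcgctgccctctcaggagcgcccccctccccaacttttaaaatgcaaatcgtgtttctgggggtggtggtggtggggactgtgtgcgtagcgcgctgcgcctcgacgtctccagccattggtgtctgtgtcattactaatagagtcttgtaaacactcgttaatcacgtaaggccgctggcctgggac
Aqp8: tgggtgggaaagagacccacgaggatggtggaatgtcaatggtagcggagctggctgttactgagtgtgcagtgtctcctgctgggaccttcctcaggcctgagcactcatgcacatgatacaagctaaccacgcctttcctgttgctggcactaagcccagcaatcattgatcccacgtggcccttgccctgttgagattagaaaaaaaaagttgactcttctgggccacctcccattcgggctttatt
Gkn2: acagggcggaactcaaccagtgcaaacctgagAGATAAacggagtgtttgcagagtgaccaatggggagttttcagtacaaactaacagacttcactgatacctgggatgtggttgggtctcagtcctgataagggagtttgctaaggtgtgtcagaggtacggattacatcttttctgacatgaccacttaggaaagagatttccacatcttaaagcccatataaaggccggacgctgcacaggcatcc
Dppa1: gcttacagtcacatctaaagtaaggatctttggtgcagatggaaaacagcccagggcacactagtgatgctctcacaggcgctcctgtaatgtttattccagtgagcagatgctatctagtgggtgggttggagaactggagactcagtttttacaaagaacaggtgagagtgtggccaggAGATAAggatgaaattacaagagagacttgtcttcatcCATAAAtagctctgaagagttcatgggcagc

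In these windows Cdx2 and Aqp8 held neither motif, Gkn2 held a GATA-type match starting 218 bases before the start, and Dppa1 held a GATA-type match at 69 and a CDX-type match, on the opposite strand, at 31 bases before it. RefSeq windows were matched for 10 of the 14 called genes. The CDX-type motif stood in 1 of 8 windows of called genes that fell, and the GATA-type motif in 2 of 8. Over all 32851 promoter windows of the same length the shares were 10.8% and 9.99%. For the genes at least 2-fold lower at both days they were 10.6% and 12.1% of 66 windows, and for those at least 2-fold higher 9.26% and 11.1% of 108. A match is a run of letters only, and its absence says that these letters are not in this window.

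Genes of stomach and stratified epithelia were also among those that fell. Gkn2, which encodes the secreted gastrokine 2 of the stomach surface, was at -4.61, 0.25 and -8.37 in control, hairpin 1 and hairpin 2 cells at day 9, and at -2.74, 1.70 and -4.40 at day 12. It was high in hairpin 1 cells only, and not well above background in hairpin 2 cells at day 9. At day 12, where every vector was measured, the difference was -6.11. Gkn2 fell by 7.36 (SE 0.58, limma adjusted p = 0.0497) in the fit, which includes the dim array, and by 3.66 with normexp. Of 9 stomach genes, a family set chosen after the values were seen, 1 fell, 1 rose and 7 did not pass.

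Crct1, a gene of the epidermal differentiation complex, was at -3.81, -1.80 and -4.59 at day 9 and at -2.10, 0.74 and -2.14 at day 12. Within each day hairpin 1 stood above both other vectors, and hairpin 2 lay just below the control. Crct1 fell by 2.84 (SE 0.25, limma adjusted p = 0.0497), and by 1.62 with normexp. Krt14, the keratin of basal epidermal cells, was at -1.35, -0.26 and -2.14 at day 9 and at 0.65, 1.62 and -0.39 at day 12, and fell by 1.95 (SE 0.17, limma adjusted p = 0.0497). It was the only one of 10 epidermal keratins to pass, a family chosen after the values were seen; Krt5, the usual partner of Krt14, was 0.21 (SE 0.38). Among 33 epithelial junction and keratin genes none passed, where 0.0692% of all genes did. In this list 8 were higher and 11 lower at both days, beside 32.2% and 26.6% over all genes, and the median was -0.0648. Its bright members Krt8 (-0.75, SE 0.17) and Krt18 (-0.74, SE 0.20), the keratins of simple epithelia, were lower at both days.

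**Figure D2:**
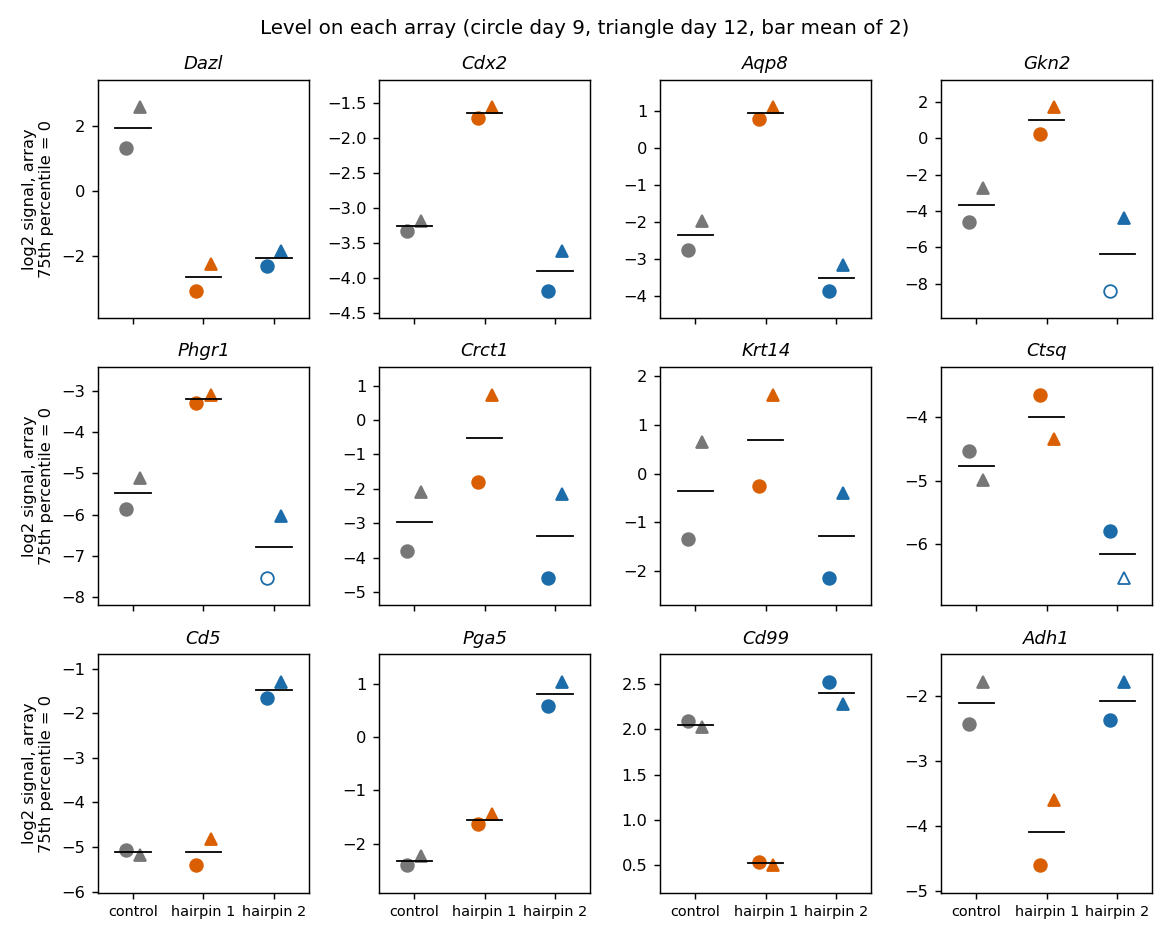
Log2 signal of 12 genes on each of the 6 arrays, by vector (x axis), with the array's 75th percentile at 0 (y axis, own range per gene); circles are day 9, triangles day 12, open symbols are not well above background and bars are means of 2 arrays. Dazl is low with both hairpins, the genes from Cdx2 to Ctsq are highest in hairpin 1 cells, Cd5 and Pga5 are highest in hairpin 2 cells, and Adh1 is lowest in hairpin 1 cells.

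Trophoblast genes were lower in hairpin 2 cells as a group. Of 25 measured trophectoderm genes, 18 were lower and 1 was higher at both days (26.6% and 32.2% over all genes), with a median of -0.555. By the fit 2 fell and none rose, where 0.0445% and 0.0247% of all genes did. The median was -0.738 at day 9 and -0.337 at day 12, and -0.11 with normexp. Against the control, the list's median was 0.164 in hairpin 1 and -0.369 in hairpin 2 cells. Its summed level was 73.3 and 70.8 in hairpin 1 cells at days 9 and 12, and 41.8 and 53.4 in hairpin 2 cells, with 61.3 and 54.3 in control cells.

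The members that fell were Cdx2 and Ctsq, a cathepsin of trophoblast giant cells. Ctsq was at -4.53, -3.64 and -5.79 in control, hairpin 1 and hairpin 2 cells at day 9, and at -4.99, -4.34 and -6.53 at day 12, where hairpin 2 was not well above background. Hairpin 2 lay below the control and hairpin 1 above it at both days, and Ctsq fell by 2.16 (SE 0.17, limma adjusted p = 0.0497), though by 0.08 with normexp. The 3 other placental cathepsins measured did not pass. Ctsr was -2.54 (SE 0.23, limma adjusted p = 0.0581; -0.83 with normexp), Ctsj -1.93 (SE 0.38, limma adjusted p = 0.157) and Ctsm -0.08 (SE 0.62, limma adjusted p = 0.966). These cathepsins are close in sequence, so how much their probes share signal was not tested.

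Other trophoblast regulators stayed short of the threshold. Elf5, a transcription factor that maintains trophoblast stem cells, was at -4.48, -3.68 and -5.18 at day 9 and at -4.11, -3.01 and -4.68 at day 12, a difference of -1.58 (SE 0.17, limma adjusted p = 0.068), which was -0.11 with normexp. Sox21 was -1.43 (SE 0.16, limma adjusted p = 0.068), while its other probes gave -0.905 and -0.125, and it also lies in the distal part of chromosome 14 described below. Gata2, a GATA factor of trophoblast and blood, was -1.17 (SE 0.21), and Tpbpa, of the spongiotrophoblast, -1.11 (SE 0.31). Eomes (-0.09, SE 0.19), Tfap2c (-0.12, SE 0.19) and Tead4 (0.02, SE 0.16), core factors of the same lineage named after their values were seen, differed by less than their SE. None of 11 placental prolactins, a family chosen after the values were seen, passed. Of them 7 were lower and none higher at both days, beside 26.6% and 32.2% over all genes.

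**Figure D3:**
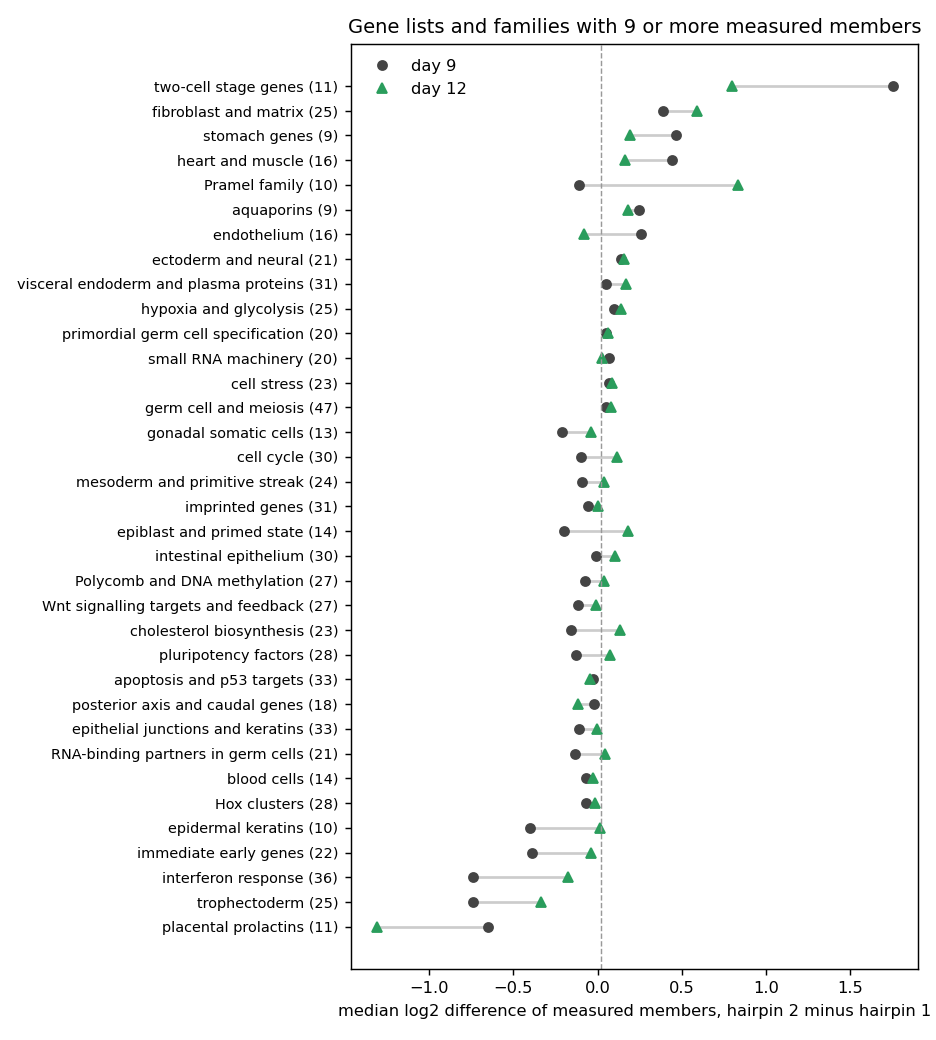
Median log2 difference of hairpin 2 minus hairpin 1 over the measured members of each list or family with at least 9 of them (number in brackets), at day 9 (circles) and day 12 (triangles); the dashed line is the median of all genes, 0.0195. The 2-cell stage genes lie highest on day 9 and placental prolactins lowest on day 12, and most lists lie near the line.

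Among genes that were higher in hairpin 2 cells, called ones came from no single tissue. Cd5, a surface receptor of lymphocytes, was at -5.06, -5.41 and -1.65 in control, hairpin 1 and hairpin 2 cells at day 9, and at -5.17, -4.83 and -1.30 at day 12. Control and hairpin 1 cells were alike and hairpin 2 cells were high at both days. Cd5 rose by 3.65 (SE 0.21, 12.5-fold, limma adjusted p = 0.0358), and by 3.64 against the control (SE 0.21, limma adjusted p = 0.0181). Between the hairpins it was 1.95 with normexp, and it did not pass in 6 of the 16 other settings. No member of the blood cell list, of which 14 were measured, passed, where 0.0692% of all genes did. In that list 4 were higher and 6 lower at both days, beside 32.2% and 26.6% over all genes, with a median of -0.104.

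Pga5, which encodes the stomach protease precursor pepsinogen, was at -2.41, -1.64 and 0.59 at day 9 and at -2.24, -1.45 and 1.04 at day 12. It was lowest in control and highest in hairpin 2 cells, and rose by 2.36 (SE 0.17, 5.13-fold, limma adjusted p = 0.0497). Gkn2 and Pga5, both stomach genes, thus differed in opposite directions. Cd99, a cell surface glycoprotein, was at 2.09, 0.54 and 2.52 at day 9 and at 2.02, 0.50 and 2.28 at day 12; here hairpin 1 cells were low and the other vectors close together. Cd99 rose by 1.88 (SE 0.16, limma adjusted p = 0.0497), and its other probe gave 1.67.

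The other called genes were 1700010N08Rik and a transcript with no symbol in the gene table (BC039142), both of no function known here. 1700010N08Rik was not well above background on either hairpin 1 array, nor on the hairpin 2 array of day 9, so the hairpins were not told apart at that day. At day 12 hairpin 2 was at -5.60, against a hairpin 1 signal of -7.60 not well above background, so no bound is given. The fit (means -8.13 and -6.20 in hairpins 1 and 2, limma adjusted p = 0.0497) includes the dim arrays. Its difference was 0.67 under normexp and 3.41 in the authors' deposited table, neither of which passed. BC039142 was at 1.83, 0.39 and 2.63 at day 9 and at 1.77, 0.55 and 2.51 at day 12, and rose by 2.10 (SE 0.17, limma adjusted p = 0.0497). In the other direction Dppa1, a gene active in early embryos and ES cells, was at -6.08 and -5.10 in hairpin 1 cells and not well above background in the other samples. It was at least 2.43-fold lower in hairpin 2 (means -5.59 and -8.17, limma adjusted p = 0.0497), with a difference of 0.35 under normexp.

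Several genes just short of the threshold were low in hairpin 1 cells, as Cd99 was. Adh1, an alcohol dehydrogenase that also oxidises retinol, was at -2.43, -4.60 and -2.36 in control, hairpin 1 and hairpin 2 cells at day 9, and at -1.78, -3.59 and -1.78 at day 12. Control and hairpin 2 were nearly equal and hairpin 1 was low, with a difference of 2.02 (SE 0.18, limma adjusted p = 0.0574). Capn6, a calpain without protease activity, was 1.66 (SE 0.16, limma adjusted p = 0.0647), and Ryr3, a calcium channel of the endoplasmic reticulum, 1.71 (SE 0.16, limma adjusted p = 0.0647), although another of its probes gave 0.08. Dnah12, an axonemal dynein, was 1.74 (SE 0.19, limma adjusted p = 0.068). Pifo, a gene of ciliated cells, was at least 2.20-fold higher in hairpin 2 (limma adjusted p = 0.068). The 3 further genes that the naming rule gave in this direction were 2300002M23Rik (1.65, SE 0.16), Lhx1os (1.91 at day 9 and 2.10 at day 12) and Mir100hg (at least 2.84-fold higher), and in the other direction Klk6 (-1.84, SE 0.18), a kallikrein protease, and Lipg (at least 2.27-fold lower, with 0.34 under normexp), the endothelial lipase. None of these passed. Lhx1os is the opposite-strand neighbour of Lhx1, a LIM homeobox gene of early mesoderm and endoderm, which was at -4.71, -4.48 and -2.93 at day 9 and at -4.60, -4.77 and -3.18 at day 12 (1.57, SE 0.18, limma adjusted p = 0.0684). Both were high in hairpin 2 cells only. Whether their probes share signal was not tested.

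The control arrays show where each hairpin stood. Of the 142 genes at least 2-fold higher at both days, hairpin 1 was farther from the control than hairpin 2 in 95, with median fitted differences from the control of -0.98 and 0.44. Of the 88 lower genes, hairpin 1 was farther in 59, with medians of 0.98 and -0.64. The control lay between the hairpins in 99 and 69 of these genes. The genes were chosen by the difference between the hairpins, so these counts are a description. Of the genes that passed, the signals of the hairpins lay on opposite sides of the control at both days in 10 of 14. In 1 of these, Isx, neither control nor hairpin 2 was well above background, so the side of hairpin 2 was measured in 9. The same fit called 5 genes between hairpin 1 and control (0.0247%), 3 higher (0.0148%) and 2 lower (0.00989%). Between hairpin 2 and control it called 7 (0.0346%), 5 higher (0.0247%) and 2 lower (0.00989%). Both contrasts use the same control arrays, and each count was 0 without the hairpin 2 array of either day.

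**Figure D4:**
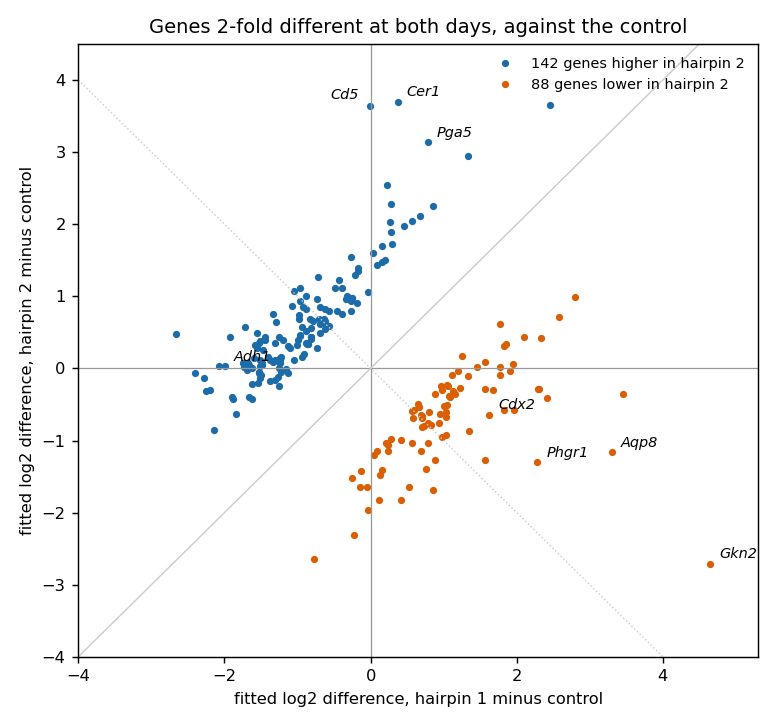
Fitted log2 difference from the control for hairpin 1 (x axis) and hairpin 2 (y axis), for the 142 genes at least 2-fold higher (blue) and the 88 at least 2-fold lower (orange) in hairpin 2 at both days; the solid line marks equal differences and the dotted line equal sizes of opposite sign. Adh1 lies near 0 for hairpin 2 and Cd5 near 0 for hairpin 1, while Aqp8 and Gkn2 lie above 0 for hairpin 1 and below 0 for hairpin 2.

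Endoderm genes split between the hairpins. Of 31 measured genes of visceral endoderm and plasma proteins, 16 were higher (51.6%) and 12 lower (38.7%) at both days. Over all genes the shares were 32.2% and 26.6%. The list's median was 0.137, and none passed, where 0.0692% of all genes did. Cer1, a secreted Nodal antagonist of the anterior visceral endoderm, was not well above background in hairpin 1 cells and at least 3.72-fold higher in hairpin 2 (means -8.31 and -4.97, limma adjusted p = 0.068), with a difference of 0.92 under normexp. Apoa1, the main protein of high-density lipoprotein, was at -6.26, -4.62 and -3.11 in control, hairpin 1 and hairpin 2 cells at day 9, and at -5.73, -4.70 and -2.99 at day 12. Both hairpins were above the control and hairpin 2 was highest, with a difference of 1.61 (SE 0.20, limma adjusted p = 0.0822). Apob, of the low-density lipoprotein, was 1.43 (SE 0.44).

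Other endoderm genes lay the other way. Cubn, the endocytic receptor cubilin, was at -3.15, -0.65 and -3.48 at day 9 and at -2.57, -1.43 and -3.40 at day 12, high in hairpin 1 cells (-2.40, SE 0.33, limma adjusted p = 0.0905). Sox7, an endoderm factor, was -1.48 (SE 0.47). Gata6 (-0.89, SE 0.24), Sox17 (-0.68, SE 0.18) and Foxa2 (-0.67, SE 0.16), named after their values were seen, were also lower at both days. None of these passed.

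Mesoderm genes had no common direction. Of 24 measured mesoderm and primitive streak genes 9 were higher and 8 lower at both days, beside 32.2% and 26.6% over all genes. The median was 0.0178, and none of the 24 passed, where 0.0692% of all genes did. Their summed level was 29 and 27.4 in hairpin 1 against 14.2 and 18.2 in hairpin 2 and 15.4 and 12.4 in control cells. The brightest contribution was that of Tcf15, a basic helix-loop-helix factor of paraxial mesoderm, at 3.44, 4.54 and 3.23 at day 9 and at 2.99, 4.46 and 3.71 at day 12 (-1.03, SE 0.25, limma adjusted p = 0.215).

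Some groups differed by a small amount in many members. Of 25 measured fibroblast and matrix genes, 20 were higher and 2 lower at both days, beside 32.2% and 26.6% over all genes. Their median was 0.467, with 0.391 at day 9 and 0.587 at day 12. The largest differences were those of the small proteoglycans decorin, Dcn (1.31, SE 0.30), and lumican, Lum (1.20, SE 0.25), and of Col3a1 (1.04, SE 0.30) and Postn (0.99, SE 0.26), a collagen and a matrix protein. The list's summed level was 96.1 and 89.6 in hairpin 1, 99.4 and 98.3 in hairpin 2 and 92.4 and 78.1 in control cells. Of 16 heart and muscle genes, 10 were higher and 2 lower at both days (median 0.357), led by Actc1, cardiac actin (1.32, SE 0.28). No member of either list passed, where 0.0692% of all genes did, and their part in the other differences was not tested.

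Genes of the 2-cell stage formed another such group. All 11 measured members had a positive fitted difference, and 10 were higher at both days, beside 32.2% of all genes. Their fitted median was 1.32, and none passed. The median was 1.75 at day 9 and 0.797 at day 12, and the difference between the days was not tested. Tcstv1 was at -0.86, -2.64 and -0.35 in control, hairpin 1 and hairpin 2 cells at day 9, and at 1.90, 1.21 and 2.04 at day 12. Zfp352, a zinc finger gene of the 2-cell embryo, was at -3.75, -5.24 and -3.54 at day 9 and at -1.60, -2.65 and -1.70 at day 12. In both, hairpin 1 cells were low and hairpin 2 cells near the control, and levels were higher at day 12 than at day 9 in every vector. Several members, such as Usp17la, Usp17lb and Usp17lc, are near-identical copies whose probes may share signal, so they are uncertain as single genes. The list's median against the control was -0.956 for hairpin 1 and 0.325 for hairpin 2.

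Further families that were low in hairpin 1 cells were chosen after the values were seen. All 5 Xlr and Slxl1 genes, X-linked and related to a synaptonemal complex protein, were higher in hairpin 2 at both days, with a median of 1.48, and their median was -1.51 in hairpin 1 and 0.00531 in hairpin 2 against the control. Xlr5d was at -0.73, -2.39 and -0.81 at day 9 and at 1.26, -0.10 and 1.43 at day 12 (1.55, SE 0.17, limma adjusted p = 0.068). Of 6 Magea genes, X-linked cancer-testis antigens, 5 were higher at both days, with a median of 1.32, and 1 was well above background on all 6 arrays. Their median against the control was -2.02 in hairpin 1 and -0.776 in hairpin 2, so both hairpins lay below the control. Over all genes 32.2% were higher at both days. No member of these families passed, and their copies share sequence.

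Interferon response genes were mostly lower in hairpin 2 cells, chiefly at day 9. Of 36 measured, 22 were lower and 1 was higher at both days, beside 26.6% and 32.2% over all genes. The median was -0.737 at day 9 and -0.175 at day 12. The fitted median of -0.418 was -0.07 without hairpin 1 of day 9 and -0.81 without hairpin 1 of day 12. Ifih1, a sensor of double-stranded RNA, was -1.59 at day 9 and -0.43 at day 12, and Isg15, a ubiquitin-like protein induced by interferon, -1.42 and -0.54. None passed. The summed level was 78.2 in control, 97.6 in hairpin 1 and 63.5 in hairpin 2 cells at day 9, and 184, 152 and 160 at day 12, so the order of the vectors was not the same on the 2 days.

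Germ cell and pluripotency genes had medians near that of all genes. Of 47 measured germ cell and meiosis genes, 19 were higher and 12 lower at both days (median 0.0373); against the control the medians were -0.447 for hairpin 1 and -0.391 for hairpin 2. Of 28 pluripotency factors 10 were higher and 5 lower (median -0.0399), and of 20 primordial germ cell specification genes 8 were higher and 5 lower (median 0.0741). The 20 genes of the small RNA machinery, which processes and uses hairpins, had a median of 0.0656, with 6 higher and 3 lower at both days. Over all genes, 32.2% were higher and 26.6% lower at both days. No member of these lists passed, where 0.0692% of all genes did.

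A block of neighbouring genes on chromosome 14 also separated the hairpins. It was found after the values were seen, by running medians of 15 neighbouring genes that passed 0.35 in size the same way at both days. The rule was met at 63 genes, from Vwa8 to Tm9sf2. The measured genes beyond, too near the end of the chromosome for a window of 15, were added without meeting it. The block so extended holds 70 genes well above background on all arrays. Of the 70, 58 were lower in hairpin 2 at both days (82.9%, against 26.1% of the 15029 such genes placed on a chromosome). Their median was -0.922 at day 9 and -0.681 at day 12. The block was chosen by these same differences, so this share and these medians only describe it. The other 447 genes of the chromosome had a fitted median of -0.0192. The same rule found no other stretch than 2 short runs within the Klk1b kallikrein cluster on chromosome 7, whose genes are close copies.

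The control arrays placed this difference in hairpin 1 cells. Their fitted median against the control over the 70 genes was 0.828, a fold of 1.78, with a middle range of 0.659 to 1.01, and 62 of the 70 genes were above the control at both days. For hairpin 2 the median was 0.0061, with 18 genes above and 17 below the control at both days. Tgds, a sugar dehydratase, was at -0.31, 1.25 and -0.35 in control, hairpin 1 and hairpin 2 cells at day 9, and at -0.27, 1.29 and -0.79 at day 12 (-1.84, SE 0.20, limma adjusted p = 0.068). Abcc4, a membrane transporter, was at 3.12, 4.56 and 2.85 at day 9 and at 3.06, 4.31 and 3.12 at day 12 (-1.45, SE 0.19, limma adjusted p = 0.0873). Scel, the cornified envelope protein sciellin, had the largest difference (-2.58, SE 0.27, limma adjusted p = 0.068). Sox21 and Slc15a1, members of the trophectoderm and intestinal lists, lie in this stretch, while none of the 14 called genes does. DNA was not analysed here, and what underlies the difference was not tested.

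**Figure D5:**
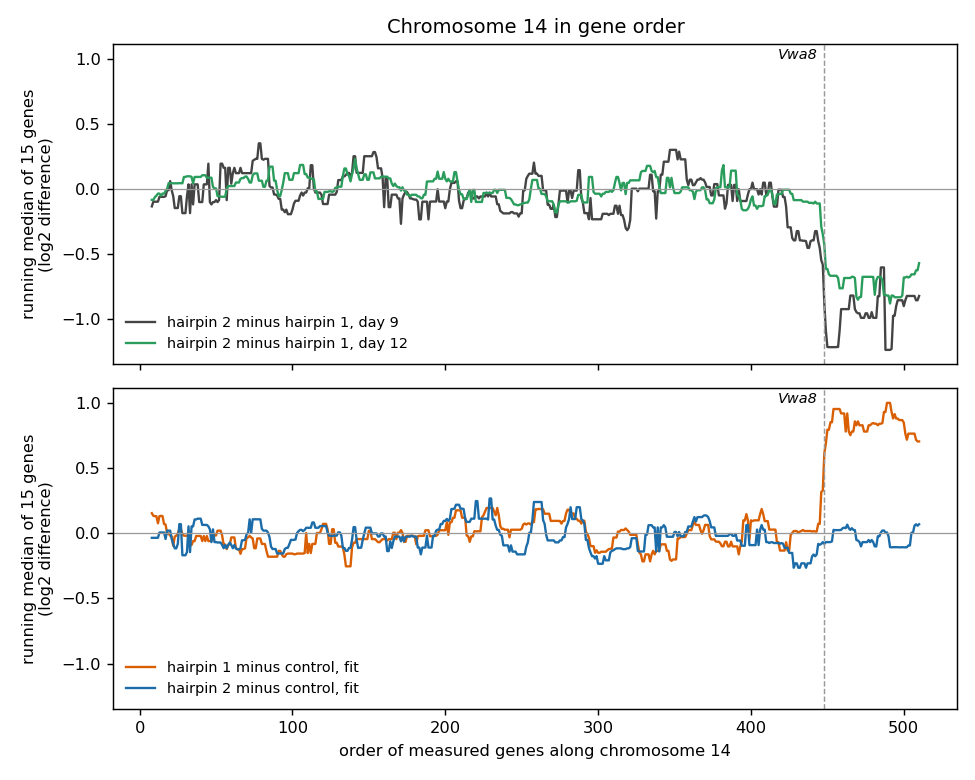
Running median of 15 neighbouring genes along chromosome 14, by order of the measured genes (x axis) and log2 difference (y axis), for hairpin 2 minus hairpin 1 at each day (top) and each hairpin minus control from the fit (bottom); the dashed line marks Vwa8. Beyond Vwa8 both days drop in the top panel, and in the bottom panel hairpin 1 rises while hairpin 2 stays near 0.

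Of 11 Y chromosome genes tested, 7 were higher and 2 lower in hairpin 2 at both days, and 2 had opposite signs. The lower ones were 1700040F15Rik (-0.93, SE 0.18) and Gm20738 (-0.72, SE 0.16), and those with opposite signs Sly and Ssty2; none of these 4 was well above background on all arrays, and none of the 11 passed. All 6 that were well above background on all arrays were higher at both days, with medians of 1.18 at day 9 and 1.78 at day 12, against 32.7% of all such genes. Ddx3y, an RNA helicase, was at -1.38, -2.35 and -0.29 in control, hairpin 1 and hairpin 2 cells at day 9, and at -1.13, -2.01 and -0.51 at day 12. Eif2s3y, a subunit of a translation initiation factor, was at 1.48, 0.73 and 1.90 at day 9 and at 1.51, 0.67 and 2.42 at day 12. Hairpin 1 was below the control and hairpin 2 above it for both genes. Neither passed (limma adjusted p = 0.068 and 0.0976). The 6 genes had a median of -1.04 against the control in hairpin 1 and 0.275 in hairpin 2. Without the genes of the Y chromosome and of distal chromosome 14, 138 genes were at least 2-fold higher and 80 at least 2-fold lower at both days, and the fit called 2. None of the 14 genes called before was among those left out, and all 14 kept their sign. In the main fit, 12 of them had a limma adjusted p of 0.0497, just under the threshold.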

How the data were processed

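Total RNA of 6 sorted samples (control, hairpin 1 and hairpin 2, each at days 9 and 12) had been labelled with Cy3 and hybridised to 1-colour Agilent arrays. Per the file headers, the scanner files came from Agilent Feature Extraction 9.1.3.1, and the deposited processed signal is a linear intensity that is already background-corrected. The authors' deposited table held, per the file headers, a ratio of signal to the array's median, made from background-subtracted signals, beside a quality score per spot. Its 41529 entries each matched 1 spot by those deposited scores (tolerance 5e-06), and 100.0% of the matched values compared, on each array, were a constant multiple of the background-subtracted signal. This table served as an alternative.

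Control spots were left out (43379 other spots, 41174 probes). Values were log2 of the processed signal minus each array's 75th percentile, averaged per probe; 30214 probes well above background on at least 2 arrays were kept, and 24 with a flagged spot were dropped, so that 30190 were tested. The probe with the highest mean stood for a gene (6935 of 20220 genes had several). Of all probes, 22944 were named by accession and 9759 by symbol through the RefSeq gene table, and 8471 kept the array's name. limma 3.58.1 (R 4.3.3) fitted vector and day to all 6 arrays, leaving 2 residual degrees of freedom, with Benjamini-Hochberg adjustment over all genes. Pairing by day follows the labels, since each day holds 1 array of each vector. The genes named are Dazl, Cdx2 and Aqp8, then up to 12 per direction: those past the threshold by size, with places left filled by the smallest unadjusted p among genes at least 2-fold apart the same way at both days. From each list up to 4 members with the largest difference and the same sign at both days qualify. BC039142 and all other genes named from lists, families, chromosome 14 and the Y chromosome were chosen after their values were seen.

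A bound ("at least") sets the bright hairpin's mean against the mean, over the dim hairpin's arrays, of the higher of the lowest signal well above background and the gene's own signal. Some signals above that lowest level were not well above background, so a bound is not a strict limit. The members and gene lists were chosen with earlier results of these data known. The fit was also run on simulated data with known changes and independent noise, where mean estimates were near the true sizes. That noise held no shift shared by the genes of an array, so it does not bear on how the call count depends on single arrays. The number of arrays limits the precision. The hairpin and probe sequences were not used here. Alternatives were the background correction, the normalization, the filter on dim probes, the probe rule, the variance prior, the fold threshold, the day term, the arrays fitted and leaving out each array.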

Additional observations from a re-analysis of the deposited data

Results flagged for a closer look

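Differences of hairpin 2 minus hairpin 1 that were at least 2-fold in opposite directions on the 2 days were found for 11 genes; with 1 array per hairpin and day the difference between days was not tested. Higher at day 9 and lower at day 12 were Prl4a1 (6.16 and -3.41) and Prl3d2 (2.18 and -2.23), both placental prolactins, C1qa (1.42 and -3.62), a complement gene of macrophages, Stpg3 (1.42 and -1.57), NAP042690-1 (1.25 and -1.30), Amy2 (1.18 and -1.33), an amylase, Olfr1359 (1.12 and -1.06), Sstr3 (1.11 and -1.20), a somatostatin receptor, and LOC625662 (1.08 and -1.30). Lower at day 9 and higher at day 12 were Olfr151 (-1.38 and 1.73), an olfactory receptor gene, and Adgrf1 (-1.23 and 1.74), an adhesion receptor. Each of the 11 genes had a hairpin array not well above background, so these sizes are uncertain. Prl4a1 had signals of 1.2 in hairpin 1 at day 9 and 1.68 in hairpin 2 at day 12. For Sstr3, Stpg3 and Adgrf1 neither hairpin was well above background at day 9, and for NAP042690-1 neither was at day 12.

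In 10 of the 14 genes that passed, the signals of hairpin 1 and hairpin 2 lay on opposite sides of the control at both days, and the hairpin difference itself passed in limma. Hairpin 1 was above and hairpin 2 below the control in Aqp8 (-4.46), Crct1 (-2.84), Cdx2 (-2.26) and Krt14 (-1.95), and in Gkn2 (-7.36), Phgr1 (-3.59) and Ctsq (-2.16), whose fitted differences include 1 hairpin 2 array not well above background. For Isx (-2.54) neither control nor hairpin 2 was well above background on any array, so the side of hairpin 2 was not measured and the difference is a bound only. The order was turned in BC039142 (2.10) and Cd99 (1.88). With 2 arrays per vector, no single array could be tested as standing apart.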

How the results depend on the processing

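The count of 14 genes between the hairpins was 119 with normexp, 72 with a trend and robust variance prior, 52 over genes well above background on all 6 arrays, 828 with only the 4 hairpin arrays (1 residual degree of freedom), 2 with the median in place of the 75th percentile, with the authors' deposited table, with the mean of a gene's probes and without distal chromosome 14 and Y genes, and 1 with quantile normalization or no filter. Without the replicate block, that is without day, limma called 0, with 1442 at an unadjusted p under 0.05. Leaving out 1 array gave 0 to 828: 0 without hairpin 2 of day 9 or of day 12 (2236 and 6680 at an unadjusted p under 0.05), 183 and 353 without hairpin 1 of day 9 and day 12, and 828 without either control. The median of all genes moved from 0.02 to 0.18 with normexp.

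Against the control, hairpin 1 had 5 calls, and 152 with normexp, 149 over genes well above background on all 6 arrays, 206 with the trend prior, 2 with quantile normalization, 0 without a filter, 0 without the block and 0 to 534 with 1 array left out. Hairpin 2 had 7, and 60, 23 and 25 in the first 3 of these settings, 0 without a filter, 0 without the block and 0 to 468 with 1 array left out. The 230 genes 2-fold apart at both days became 43 with normexp, 133 over genes well above background on all 6 arrays under either probe rule, 864 at 1.5-fold and 42 at 3-fold.

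Signs turned with normexp in Dppa1 (0.35), Hoxc6 (0.44), Hoxd10 (0.46), Isx (0.33), Lipg (0.34) and Wnt3a (0.02), and with the mean of probes in Dicer1 (0.02), Pfkp (-0.10) and Usp29 (0.06). With 1 array left out, Diablo ran from 0.00 to 0.80, Dusp6 from -1.08 to 0.10, Mirg from -2.16 to 0.01 and Usp29 from -2.26 to 0.26, the turned value coming without hairpin 2 of day 9. The causes were not tested. Genes not well above background on either array of a hairpin (390 for hairpin 1, 265 for hairpin 2) give a bound at most.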
